A study of Rattus norvegicus with 9 samples.

Results

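The genes described here are 10 immediate early genes of neurons: Arc, Npas4, Nr4a1, Nr4a3, Egr1, Egr2, Egr4, Fos, Fosb and Junb. They were taken by name from read count tables of rat striatal tissue, and 9 of the 10 had a row. The level of Junb was not analysed here, and its promoter is described below. The tables held 22890 genes, of which 14274 passed a filter on low counts, and all 9 members with a row passed it. RNA was sequenced in 9 libraries, 3 in each of 3 groups. Sham was the control group, ICH the group with intracerebral hemorrhage, which is bleeding into the brain tissue, and EDB the group whose label names the drug edaravone dexborneol, which contains edaravone, a scavenger of free radicals, together with dexborneol. Strain, age, sex, dose and time are not in the labels, and neither is whether rats given EDB had been bled as well, for which reason EDB is set against ICH and against Sham in turn. Nor do the labels state that each library came from its own animal, so each p-value measures the spread between these samples alone, which may be technical.

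Immediate early genes are transcribed within minutes of synaptic activity, growth factors or injury, without new protein being made first. Calcium entry and kinase cascades act on factors already bound to their promoters, among them CREB at cyclic AMP response elements (CRE) and serum response factor (SRF) at CArG boxes. Their products are short lived, and most of them are transcription factors that switch on later genes. In the striatum they are widely used as markers of recent activity of projection neurons. Several of them, Fos, Egr1 and Nr4a1 included, are also induced in glia, vessels and immune cells, and bulk tissue does not tell these sources apart.

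A RefSeq table of sequences for the rat assembly GRCr8 held promoters of 7 of the 10 genes: Npas4, Nr4a1, Egr1, Egr2, Egr4, Fosb and Junb. The 250 bases before each annotated start were searched on both strands for the full CRE (TGACGTCA), the CRE core (TGACG, which the full CRE contains), the CArG box, the AP-1 site bound by Fos and Jun proteins (TGANTCA), and the site bound by Egr proteins (GCGNGGGCG). The 4 promoters below are shown because they held the most matches, and because 3 of them belong to Egr genes whose levels are compared further on. Each is written 5′ to 3′ toward the start of the gene, with bases inside a match in capitals. The Nr4a1 promoter lies at chr7:134259888-134260137 (plus strand), that of Egr1 at chr18:26736828-26737077 (plus strand), that of Egr2 at chr20:21054442-21054691 (minus strand) and that of Egr4 at chr4:119607818-119608067 (minus strand), all in GRCr8.
Nr4a1: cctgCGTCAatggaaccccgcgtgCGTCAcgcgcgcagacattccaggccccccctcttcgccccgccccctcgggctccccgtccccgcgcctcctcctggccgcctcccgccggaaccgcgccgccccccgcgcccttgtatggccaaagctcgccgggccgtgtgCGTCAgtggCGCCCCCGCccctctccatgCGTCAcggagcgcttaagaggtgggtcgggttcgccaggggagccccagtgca
Egr1: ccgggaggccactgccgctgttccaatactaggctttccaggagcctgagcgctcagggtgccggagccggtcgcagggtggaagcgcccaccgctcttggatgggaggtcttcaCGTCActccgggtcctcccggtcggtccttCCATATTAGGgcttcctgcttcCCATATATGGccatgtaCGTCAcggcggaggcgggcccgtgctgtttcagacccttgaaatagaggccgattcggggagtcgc
Egr2: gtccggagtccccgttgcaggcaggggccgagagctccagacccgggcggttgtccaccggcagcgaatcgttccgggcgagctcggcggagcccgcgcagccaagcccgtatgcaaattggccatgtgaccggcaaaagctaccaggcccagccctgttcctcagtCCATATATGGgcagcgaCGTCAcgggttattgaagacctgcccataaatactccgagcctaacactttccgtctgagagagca
Egr4: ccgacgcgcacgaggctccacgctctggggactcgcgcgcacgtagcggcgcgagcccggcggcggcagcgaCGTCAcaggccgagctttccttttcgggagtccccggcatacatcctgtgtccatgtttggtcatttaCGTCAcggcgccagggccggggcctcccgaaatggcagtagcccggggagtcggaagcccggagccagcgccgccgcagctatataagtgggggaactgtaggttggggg
Egr1 held 2 CArG boxes, at 105 to 96 and at 83 to 74 bases before the start, and Egr2 held 1, also at 83 to 74 bases before the start. In both genes a CRE core followed at 66 to 62 bases before the start. Egr1 held a second core and Egr4 held 2. Nr4a1 held 4 cores and 1 Egr site, at 73 to 65 bases before the start.

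Of the 7 promoters, 5 held a CRE core, against 18.2% of the 33469 promoters in the table. A CArG box was found in 2 of the 7, against 1.497% of all promoters, and an Egr site in 1, against 4.29%. The full CRE and the AP-1 site were found in 0 of the 7, against 1.59% and 6.34% of all promoters. Junb held a core, and Npas4 and Fosb held no match. GC content was 43.6% in Fosb and ran from 62.0% in Egr2 to 74.8% in Nr4a1 among the others, with a median of 51.2% over all promoters of the table. The 5 promoters with a core were thus all above that median. These motifs differ in their own GC content, and its part in the matches was not tested. The table gives 1 start per gene. A match describes letters, not a bound site, and a window without one says nothing about the factor.

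**Figure D1:**
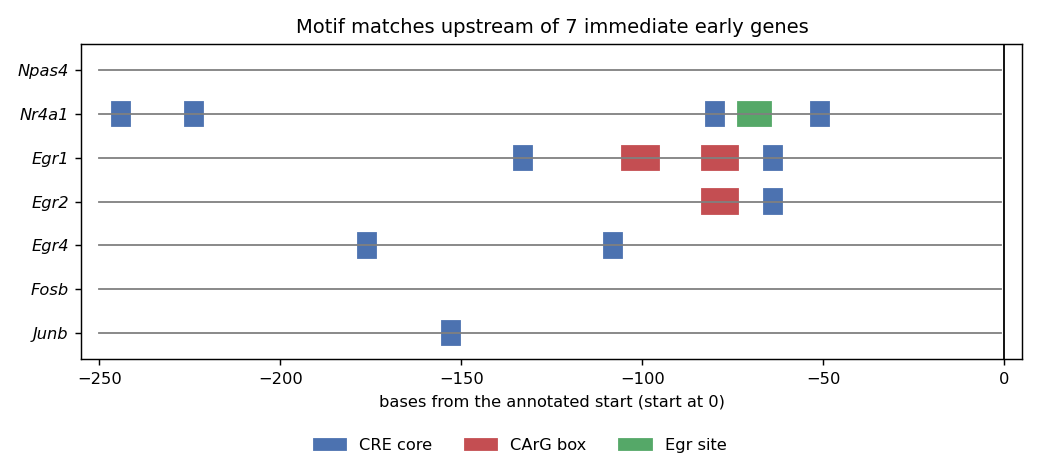
Motif matches in the 250 bases before the annotated start of 7 immediate early genes. The x axis is the distance from the start in bases, and coloured boxes are CRE cores, CArG boxes and Egr sites. Egr1 and Egr2 carry a CArG box and a core at the same distances from the start, and Npas4 and Fosb carry no box.

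Total counts ran from 14658110 to 17659936 per library, so 3 counts correspond to 0.162 to 0.212 CPM, the unit used throughout, in which a gene's counts are divided by the library's total after TMM scaling. Some libraries stood apart in ways their labels do not give. Albumin transcripts (Alb), a liver product, stood at 2.27 to 3.21 CPM in Sham 2, ICH 1 and EDB 1. Among the other 6, they stood at 165 to 166 CPM in Sham 1 and Sham 3 and at 17.98 to 25.8 CPM in ICH and EDB. Transthyretin (Ttr), a choroid plexus product, stood at 6681 CPM in EDB 3 and at 17.0 to 52.4 CPM elsewhere. Mitochondrial genes took 2.93% of counts in ICH 2 to 12.03% in Sham 3. Markers of striatal projection neurons were abundant in every library, with summed CPM of 8364 to 13404 in Sham, 6029 to 7588 in ICH and 8862 to 10098 in EDB. In the list of cortical projection neuron markers, the summed CPM was 2757 in Sham 2 and 1053 to 1709 in the other 8 libraries.

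In hemorrhage, the immediate early genes were far below the controls. Arc, Nr4a1, Nr4a3, Egr1, Egr2, Egr4, Fosb and Npas4 fell, and all 3 ICH libraries lay below all 3 Sham libraries for each of the 8. ICH lay wholly below Sham in this way for 2200 of all 14274 genes tested. Fos was the 1 member not called. In the EDB group the same comparison with Sham called 8 members lower, now with Fos among them and Npas4 not called. The members' summed CPM was 1264, 1314 and 586 in the Sham libraries, 293, 302 and 332 in ICH, and 226, 317 and 277 in EDB.

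These calls come from edgeR's quasi-likelihood test with Benjamini-Hochberg adjustment over all 14274 genes, at an adjusted p under 0.05. In ICH against Sham, 8 of 9 members were called lower, beside 7.30% of all genes tested, and 0 were called higher, beside 11.4%. The members' median log2 fold change was -2.33, and that of all genes 0.01. For EDB against Sham, 8 of 9 were called lower, beside 2.71% of all genes, and 0 higher, beside 4.95%, with a median of -2.34 against -0.01 for all genes. At an unadjusted p under 0.05 the members called higher were also 0 in both comparisons, as they were by DESeq2 and limma-voom. Both comparisons use the same Sham libraries, so they are not independent of each other.

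**Figure D2:**
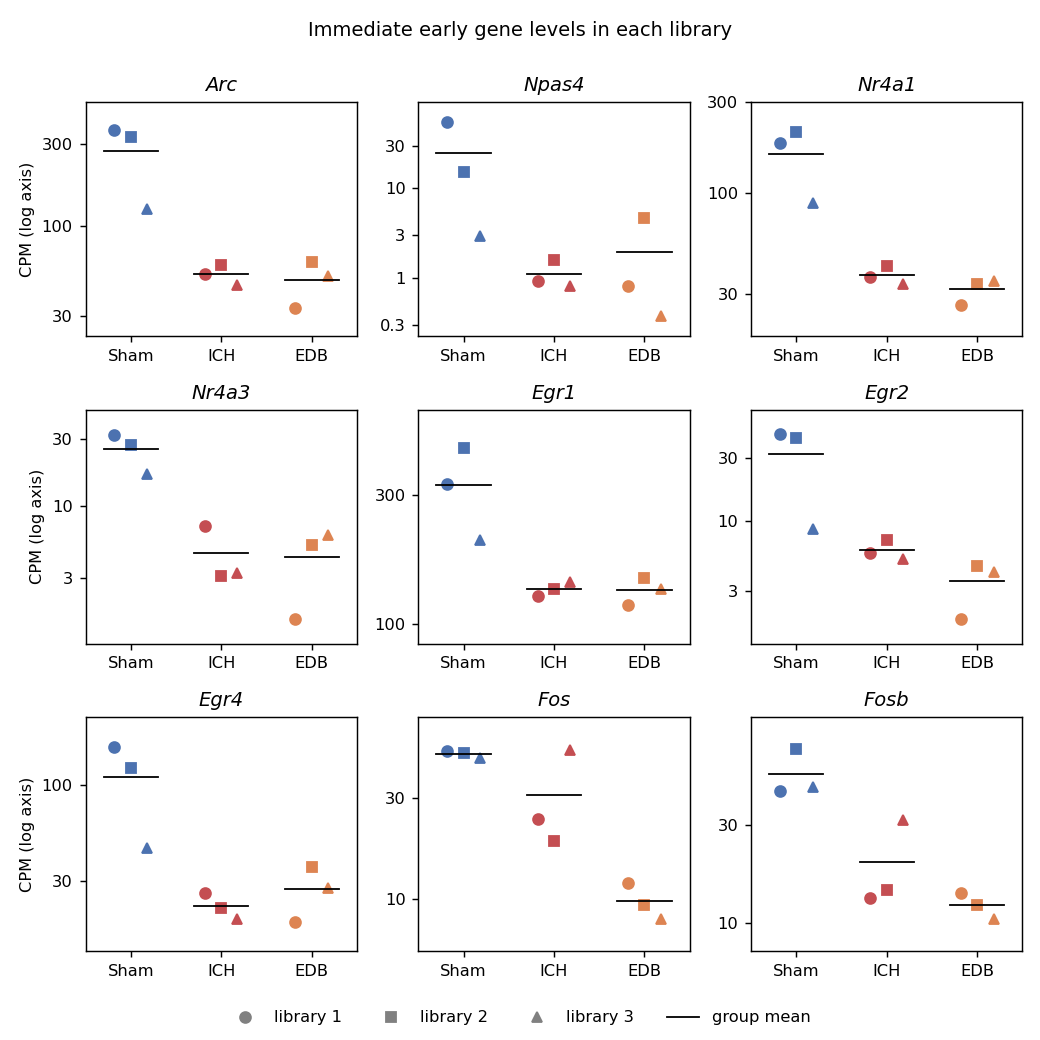
CPM of the 9 immediate early genes in each library, on log axes, with a panel per gene, a marker shape per library number and a line at each group mean. Numbers name libraries, and the labels do not state that they pair them. Sham 3 is the lowest Sham library in every panel but that of Fosb, and ICH 3 stands above the other ICH libraries for Fos and Fosb.

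Arc encodes a cytoskeletal protein of dendrites and spines that drives removal of AMPA receptors, and it is the member here that is not a transcription factor. Its level was 361, 332 and 127 CPM in Sham 1, Sham 2 and Sham 3, then 53.0, 59.4 and 45.6 CPM after hemorrhage, and 33.7, 62.0 and 51.2 CPM under EDB. The groups with ICH and EDB overlapped each other, and both lay wholly below Sham, although Sham 3 was well under the other Sham libraries. The log2 fold change was -2.38 ± 0.35 (SE, n = 3 against 3, adjusted p = 0.00096) in ICH against Sham, a level 19.3% of that in Sham. Under EDB it was -2.48 ± 0.36 (adjusted p = 0.00222).

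Npas4, a transcription factor induced in neurons by calcium entry and known for regulating inhibitory synapses, had the fewest counts of the members. The 3 Sham libraries gave 887, 224 and 42 counts, which is 55.4, 15.3 and 2.97 CPM. In ICH it had 16, 25 and 15 counts, or 0.932, 1.57 and 0.810 CPM, and in EDB 13, 78 and 6 counts, or 0.804, 4.67 and 0.375 CPM. The Sham libraries thus differed 18.6-fold among themselves, ICH lay below all of them, and EDB 2 lay above Sham 3. The log2 fold change in ICH against Sham, -4.48 ± 1.12 (adjusted p = 0.0203), was the most negative of all 14274 genes, with a 95% interval from -6.98 to -1.98. Leaving out Sham 1, Sham 2 or any 1 of the ICH libraries ended this call, with an adjusted p of 0.0535 to 0.0933, and without Sham 1 the value was -3.10. The call was also lost under limma-voom (adjusted p = 0.108) and with no filter on low counts (0.065). Npas4 under EDB was at -3.64 ± 1.06 (adjusted p = 0.067), a value that passed the test without Sham 3 (-4.17, adjusted p = 0.037) or without EDB 2 (-5.36, adjusted p = 0.0294), and by DESeq2 (-3.66, adjusted p = 0.0183).

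Nr4a1 and Nr4a3 encode orphan nuclear receptors, Nur77 and Nor1, which act without a known hormone. Nr4a1 stood at 184, 208 and 89.2 CPM in Sham, at 36.8, 41.9 and 33.8 CPM in ICH, and at 26.0, 33.9 and 35.1 CPM in EDB. Its ICH and EDB libraries overlapped and together spanned a range far narrower than that of Sham. Its log2 fold change was -2.10 ± 0.27 (adjusted p = 0.000353) under hemorrhage and -2.34 ± 0.27 (adjusted p = 0.000825) under EDB. Nr4a3 stood at 32.4, 27.1 and 16.8 CPM in Sham, at 7.17, 3.14 and 3.29 CPM in ICH, and at 1.55, 5.21 and 6.12 CPM in EDB. ICH 1 was the highest ICH library and EDB 1 the lowest EDB library, and neither group reached Sham. Nr4a3 fell by 2.49 ± 0.48 on the log2 scale in ICH (adjusted p = 0.00445) and was at -2.56 ± 0.48 in EDB (adjusted p = 0.0089), both against Sham.

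The Egr genes encode zinc finger transcription factors that bind the same GC-rich site, the one matched in the Nr4a1 promoter above. Egr1, used as a marker of synaptic plasticity, stood at 329.9, 447 and 205 CPM in Sham, at 127, 134 and 143 CPM in ICH, and at 118, 149 and 134 CPM in EDB. The ICH libraries were close together, EDB spanned a wider range that took in that of ICH, and all 6 lay below Sham 3. The log2 fold changes were -1.28 ± 0.23 in ICH (adjusted p = 0.00296) and -1.29 ± 0.23 in EDB (adjusted p = 0.00666), so Egr1 kept 41.2% and 40.8% of its Sham level.

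Egr2, known also as the regulator of myelination in Schwann cells, stood at 45.2, 42.4 and 8.70 CPM in Sham, at 5.83, 7.30 and 5.24 CPM in ICH, and at 1.86, 4.67 and 4.19 CPM in EDB. Sham 3 came close to the highest ICH library, and every EDB library was below every ICH library. Egr2 fell by 2.39 ± 0.53 in ICH (adjusted p = 0.0096) and was at -3.16 ± 0.55 in EDB (adjusted p = 0.00636), on the log2 scale against Sham. Egr4, a member of the family with prominent expression in neurons, stood at 162, 125 and 45.6 CPM in Sham, at 25.9, 21.5 and 18.8 CPM in ICH, and at 18.1, 36.1 and 27.5 CPM in EDB. ICH and EDB overlapped below Sham. Its log2 fold change was -2.33 ± 0.40 in ICH (adjusted p = 0.00261) and -2.03 ± 0.40 in EDB (adjusted p = 0.0119), and the latter call was lost without EDB 1 (-1.80, adjusted p = 0.0546).

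Fos and Fosb encode partners of the Jun proteins in the AP-1 transcription factor. Fos stood at 49.7, 48.5 and 45.9 CPM in Sham, at 23.7, 18.8 and 50.4 CPM in ICH, and at 11.9, 9.35 and 8.06 CPM in EDB. The 3 Sham libraries lay close together here, ICH 3 was at the Sham level while ICH 1 and ICH 2 were well below it, and EDB was below both other groups. Against Sham, Fos was at -0.63 ± 0.30 in ICH (95% interval -1.30 to 0.04, adjusted p = 0.182) and fell by 2.30 ± 0.32 in EDB (adjusted p = 0.00199). Without ICH 3, Fos passed the test in ICH against Sham, at -1.18 ± 0.20 (adjusted p = 0.00333).

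Fosb, whose truncated product deltaFosB is known to accumulate in striatal neurons under repeated stimulation, was measured as 1 gene, so its isoforms were not separated. It stood at 43.7, 69.5 and 45.4 CPM in Sham, at 13.2, 14.5 and 31.6 CPM in ICH, and at 13.9, 12.2 and 10.4 CPM in EDB. As with Fos, ICH 3 was the highest ICH library, but it stayed below Sham. Fosb fell by 1.42 ± 0.32 on the log2 scale in ICH (adjusted p = 0.00986) and was at -2.12 ± 0.32 in EDB (adjusted p = 0.003), both against Sham.

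**Figure D3:**
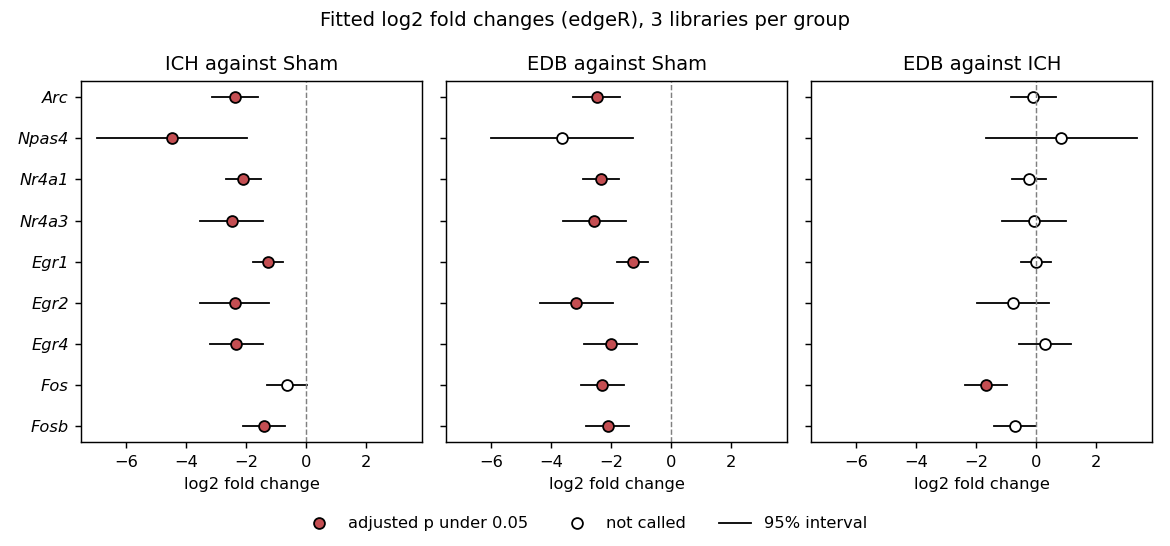
Fitted log2 fold changes of the 9 members in the 3 comparisons, with 95% intervals and 3 libraries per group. Filled points passed an adjusted p under 0.05. All points of both comparisons with Sham lie left of 0, and in EDB against ICH the filled point is that of Fos, at -1.67.

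Between EDB and ICH, Fos was the 1 member called. It was 31.5% of its ICH level in EDB, a log2 fold change of -1.67 ± 0.32 (95% interval -2.37 to -0.96, adjusted p = 0.0475), and no EDB library reached the lowest ICH library. The 1 member of 9 called lower stands beside 0.631% of all genes, and the 0 members called higher beside 0.0560%, where 0 members were higher at an unadjusted p under 0.05, by DESeq2 or by limma-voom. The call was near the threshold and was lost when Sham 1, Sham 3 or any 1 of the ICH or EDB libraries was left out (adjusted p from 0.0606 to 0.124). The value then ran from -1.91 without ICH 2 to -1.12 without ICH 3, and every such value was negative.

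For the other 8 members the test did not separate EDB from ICH, and the intervals say what sizes remain possible. Egr1 was the most narrowly bounded, at -0.01 (95% interval -0.51 to 0.49 on the log2 scale), followed by Nr4a1 at -0.25 (-0.83 to 0.34), and Arc was at -0.10 (-0.86 to 0.65). Those intervals leave room for a change of either sign. Egr4 was at 0.30 (-0.57 to 1.17), Nr4a3 at -0.08 (-1.13 to 0.97) and Npas4 at 0.83 (-1.68 to 3.35), so larger changes are not bounded out for them. Fosb was at -0.70 (-1.40 to 0.00, adjusted p = 0.31) and Egr2 at -0.77 (-1.96 to 0.42, adjusted p = 0.512), although the EDB and ICH libraries did not overlap for Egr2. All EDB libraries lay below all ICH libraries for 1943 of the 14274 genes tested. The members' median was -0.10, against -0.03 over all genes.

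The members also varied together among the control libraries. Sham 3 was the lowest Sham library for 8 of 9 members, and Sham 1 for Fosb. Sham 1 was the highest for 6 members and Sham 2 for 3. The highest Sham library exceeded the lowest 18.6-fold for Npas4, 5.19-fold for Egr2, 3.56-fold for Egr4 and 2.86-fold for Arc, but 1.08-fold for Fos. Sham 3 was also the library with the highest share of mitochondrial counts, 12.03%, and the part of this in the low levels was not tested. Without Sham 3, 8 members were called lower under hemorrhage and 9 under EDB, with median log2 fold changes of -2.70 and -2.63. In EDB, the lowest library was EDB 1 for 6 members, and in ICH it was ICH 3 for 5.

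The 3 libraries low in albumin transcripts, 1 in each group, split every group in the same way. Comparing Sham 2, ICH 1 and EDB 1 with each other gave log2 differences of -3.46 for Npas4 to -1.02 for Fos in ICH against Sham. The other 6 libraries gave -3.08 for Npas4 to -0.62 for Fos. For EDB the range was -4.19 for Egr2 to -1.92 for Egr1 among the 3 libraries, and -2.71 for Npas4 to -0.88 for Egr1 among the other 6. All 9 members were thus lower than in Sham within both sets. In EDB against ICH the sets differed in sign for 6 of 9 members. EDB 1 against ICH 1 gave -1.91 for Nr4a3, -0.64 for Arc, -0.51 for Egr4, -0.14 for Npas4, -0.11 for Egr1 and 0.07 for Fosb, and the other libraries gave 0.73, 0.11, 0.63, 0.37, 0.03 and -0.89. Fos, Egr2 and Nr4a1 were lower in EDB within both sets. With the 3 libraries left out, which leaves 2 per group, 4 members remained called lower under hemorrhage and 4 under EDB. Calls were lost for Npas4 (adjusted p = 0.172), Egr2 (0.111), Egr4 (0.0604) and Fosb (0.105) in the former. In the latter they were lost for Arc (0.0767), Egr1 (0.0532), Egr2 (0.0999) and Egr4 (0.152). For Fos, EDB against ICH was then at -1.99 (adjusted p = 0.14).

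Neuronal transcripts as a whole were lower in ICH, but by far less than the early genes. The geometric mean CPM of 12 pan-neuronal markers was 197, 218 and 208 in the Sham libraries, 165, 137 and 158 in ICH, and 184, 204 and 172 in EDB. That is a log2 difference from Sham of -0.44 for ICH and -0.16 for EDB, beside member medians of -2.33 and -2.34. None of the 12 markers was at 0 in any library. In ICH against Sham 3 of them fell, beside 7.30% of all genes: Rbfox3 (NeuN), Tubb3 and Stmn2, at -0.73, -0.55 and -0.37. That count was 1 without ICH 2 or without EDB 1. For the 13 tested markers of striatal projection neurons it was 4, with a median of -0.48, led by the adenosine receptor Adora2a at -0.81, and it was 1 without ICH 1 or ICH 3 and 2 without ICH 2. With EDB set against Sham, 0 markers of either list were called, beside 2.71% of all genes called lower and 4.95% called higher. At an unadjusted p under 0.05, 1 pan-neuronal marker was lower, and 2 projection neuron markers were lower and 1 higher. Of all 14274 genes, 3266 passed that threshold in either direction. DESeq2 called 1 pan-neuronal marker lower and 1 projection neuron marker higher, and limma-voom called 0 of either list. In bulk tissue, fewer cells of a type and less RNA per cell cannot be told apart.

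**Figure D4:**
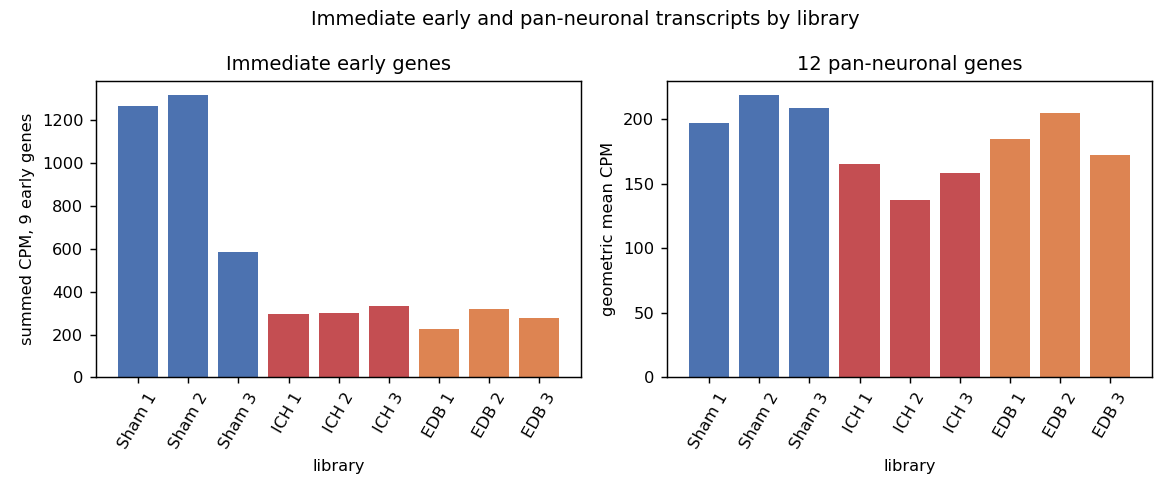
Summed CPM of the 9 immediate early genes (left) and geometric mean CPM of 12 pan-neuronal genes (right) in each library, as bars from 0. The early gene sums drop from 586 to 1314 in Sham to at most 332 in ICH and EDB, while the pan-neuronal means stay between 137 and 218.

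When libraries were scaled by these pan-neuronal markers instead of TMM, so that a level is read relative to neuronal transcripts, the median of all genes moved to 0.45 for ICH and 0.15 for EDB, each against Sham, and to -0.32 for EDB against ICH. On that scale 7 members were called lower in ICH and 8 in EDB than in Sham, beside 164 and 138 of all 14274 genes. The members' medians were -1.90 and -2.18. Npas4 was the member that lost its call in ICH (adjusted p = 0.0583). A change of scaling shifts all genes of a library alike, so the distance of the members' median from that of all genes is nearly fixed by construction. Fos was the member called in EDB against ICH there too. Transcripts of other cells changed as well. Under TMM, 10 of 12 markers of microglia and macrophages rose in ICH and 9 in EDB, beside 11.4% and 4.95% of all genes. Their summed CPM rose from 673 to 780 in Sham to 3112 to 3603 in ICH and 1539 to 2738 in EDB. The part of this change in cell makeup in the members' levels was not tested beyond the neuronal scaling.

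Other transcription factors of the immediate early class were called in both directions. Of 26 tested, 5 rose and 5 fell in ICH against Sham, beside 11.4% and 7.30% of all genes. The list's median log2 fold change was -0.04. Under pan-neuronal scaling 8 rose and 3 fell, beside 4763 and 164 of all 14274 genes. Cebpd and Cebpb, factors of the acute phase and inflammatory response, rose by 2.19 ± 0.14 and 1.17 ± 0.16, and Myc, a driver of growth, rose by 1.11 ± 0.24. Fosl2, a further Fos family member, fell by 1.48 ± 0.25, Klf2, a factor best known from endothelium, fell by 1.40 ± 0.28, and Egr3, the remaining Egr gene, fell by 0.76 ± 0.16. All 6 kept their calls without each library in turn, and Egr3 lost its call under pan-neuronal scaling (adjusted p = 0.16). Without Sham 2, ICH 1 and EDB 1, Egr3 (adjusted p = 0.0565) and Klf2 (0.0804) were not called. The count of falls was 3 without ICH 1, and that of rises 3 without ICH 2.

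Under EDB, 2 of these 26 factors rose and 5 fell, beside 4.95% and 2.71% of all genes, with a median of -0.29. Fosl2 fell by 2.03 ± 0.26 and Klf2 fell by 1.61 ± 0.28, and Cebpd rose by 0.92 ± 0.13, each also without any 1 library. Klf2 was not called without Sham 2, ICH 1 and EDB 1 (adjusted p = 0.0645). DESeq2 called 8 of the list lower, beside 752 of all 14274 genes. The count of falls was 2 without EDB 1 or EDB 2, and that of rises 1 without Sham 1, Sham 3, EDB 2 or EDB 3. In EDB against ICH, Cebpd fell by 1.27 ± 0.13 (adjusted p = 0.00384) and was the 1 factor called, beside 0.631% of all genes called lower. The median over the list was -0.45. DESeq2 called 4 lower there, limma-voom 2, edgeR without Sham 2 also 2, and edgeR under pan-neuronal scaling 7 (median -0.70). That last setting called 1146 of all 14274 genes lower. In ICH against Sham the list's median was 0.06 with library sizes alone and 0.40 under pan-neuronal scaling. The median of all genes moved alike, to 0.10 and 0.45. Relative to all genes the list was at -0.05 under both settings and under TMM.

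Effector genes of neuronal activity, which act in synapses, signalling and secretion, changed less. Of 35 tested, 6 fell and 2 rose in ICH against Sham (median -0.25), beside 7.30% and 11.4% of all genes. In EDB against Sham, 5 fell and 1 rose (median -0.40), beside 2.71% and 4.95% of all genes. Mapk11, a p38 kinase, fell by 1.14 ± 0.18 in ICH and by 1.08 ± 0.18 in EDB, and Sik1, a salt-inducible kinase that restrains CREB signalling, fell by 1.13 ± 0.19 in EDB, all without any 1 library too. Arl4d, a small GTPase, fell by 1.47 ± 0.30 in ICH, a call lost without Sham 2, ICH 1 and EDB 1 (adjusted p = 0.0808). In ICH against Sham, the falls numbered 3 without Sham 2, ICH 1 or ICH 3, and the rises 1 without Sham 1, Sham 3 or ICH 2. Under EDB the falls numbered 2 without EDB 1 and 3 without Sham 1, ICH 2 or EDB 3. The rises numbered 0 without Sham 1, Sham 3 or EDB 2, 2 without ICH 1 and 3 without Sham 2. DESeq2 called 8 lower and 3 higher, beside 752 and 1044 of all 14274 genes. Under pan-neuronal scaling 9 effectors rose and 2 fell in ICH against Sham, beside 4763 and 164 of all 14274 genes. The effectors' median was 0.19, or -0.26 relative to all genes.

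Among 42 tested upstream kinases, channels and transcription factors that drive early gene transcription, 13 fell and 1 rose in ICH against Sham (median -0.27). Of all genes, 7.30% fell and 11.4% rose. Camkk2, a kinase that activates other calmodulin-dependent kinases, fell by 1.05 ± 0.13, and Kcnip3, the calcium sensor DREAM, fell by 0.92 ± 0.11. Hras and Camk2g fell by 0.82 ± 0.12 and 0.73 ± 0.11, and Rps6ka1, a ribosomal S6 kinase also found in immune cells, rose by 1.22 ± 0.19. These 5 calls held without each library in turn, while Hras and Camk2g lost theirs under pan-neuronal scaling (adjusted p = 0.0911 and 0.161). There, 5 of the list fell and 6 rose, beside 164 and 4763 of all 14274 genes. The list's median turned to 0.17, or -0.28 relative to all genes. Under EDB, 6 fell and 1 rose (median -0.20), beside 2.71% and 4.95% of all genes. Rps6ka1 at 1.14 ± 0.19 and Kcnip3 at -0.57 ± 0.11 were also called without any 1 library. The falls numbered 1 without EDB 3, 2 without Sham 3 or EDB 1, 3 without EDB 2, and 0 under pan-neuronal scaling, where Kcnip3 was not called (adjusted p = 0.142), as it was not without Sham 2, ICH 1 and EDB 1 (0.0572). DESeq2 called 9 lower, beside 752 of all 14274 genes.

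In EDB against ICH edgeR called 0 effectors and 0 upstream genes, beside 0.631% of all genes called lower and 0.0560% called higher. At an unadjusted p under 0.05, 2 effectors were higher and 7 lower, and 9 upstream genes were higher. Of all 14274 genes, 2318 passed that threshold in either direction. DESeq2 called 1 effector higher and 3 lower and 2 upstream genes higher, and limma-voom called 1 effector lower. Without Sham 2, 1 effector and 3 upstream genes were called higher, and without Sham 3 or EDB 1, 1 effector was called lower. Under pan-neuronal scaling, which moves all genes toward lower values in this comparison, 6 effectors were called lower (median -0.28) and 0 upstream genes either way. All genes called lower there numbered 1146 of 14274. Of the upstream genes, Camkk2 was at 0.56 ± 0.13 (adjusted p = 0.0848) and Hras at 0.44 ± 0.12 (adjusted p = 0.117).

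**Figure D5:**
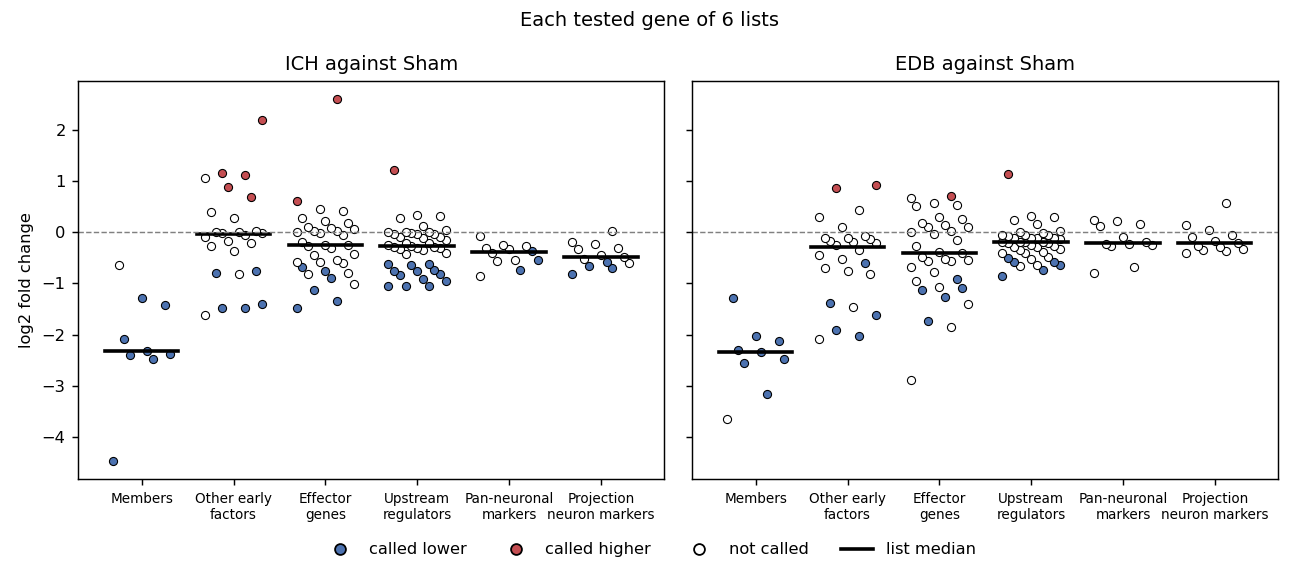
Log2 fold change of each tested gene of 6 lists in ICH against Sham (left) and EDB against Sham (right). Filled points passed an adjusted p under 0.05 (blue lower, red higher) and bars are list medians. The member medians, -2.33 and -2.34, lie well below those of the other lists, which run from -0.48 to -0.04 and from -0.40 to -0.20. Both panels use the same Sham libraries, and Penk and Pdyn stand in 2 of the lists.

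The genes whose pattern over the 9 libraries was most like that of the members were sought among 11128 other genes with a mean of at least 5 CPM, by the root mean square difference between their standardised log2 CPM and the members' mean profile. They are given as a description, since they were chosen for their pattern. Closest were Fosl2 (0.225), the clock gene Per2 (0.238), Cpeb3 (0.288), which binds messenger RNA, the kinase Sik2 (0.312), the Notch regulator Nrarp (0.312) and the diacylglycerol kinase Dgka (0.326). Among the members the same distance was 0.144 for Nr4a1 and 0.149 for Arc, 0.432 for Npas4, 0.454 for Fosb and 0.668 for Fos. Fos, Fosb, Npas4 and Nr4a3 (0.367) stood farther from the members' mean than all 6 of these genes. The 6 were picked as the closest of 11128, and each member is part of the mean, so nothing is concluded from this. Per2 stood at 69.3, 82.0 and 58.6 CPM in Sham, at 29.5, 28.6 and 24.9 CPM in ICH, and at 19.0, 26.1 and 27.4 CPM in EDB. Fosl2 stood at 74.6, 73.4 and 34.5 CPM in Sham, at 22.2, 24.4 and 18.8 CPM in ICH, and at 15.0, 14.8 and 14.8 CPM in EDB, so that it shared the low Sham 3 of the members, and both genes had no overlap between Sham and the other groups.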

How the data were processed

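Messenger RNA of rat striatal tissue was measured in 9 libraries, 3 per group. The authors deposited 1 table of raw read counts per gene for each library. Per the submitters' processing notes, cutadapt, HISAT2, HTSeq and limma were used with Rnor_6.0, with versions, roles, annotation and strand setting not given in the sources used here.

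Differential expression was tested with edgeR 4.0.16 under R 4.3.3 (filterByExpr by group, TMM, 1 mean per group over all 9 libraries, robust glmQLFit, quasi-likelihood F test). Benjamini-Hochberg adjustment covered all 14274 genes tested, and a gene is called at an adjusted p under 0.05. SE values and 95% intervals are those of the fitted log2 fold change. The procedure was tested on simulated counts. Replicates differed by more than sampling noise, so none was merged.

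Every member is named. Of 3 lists of related genes, up to 6 genes with the smallest p in each comparison are named, and of 9 lists of cell type markers up to 3, apart from genes that are not reported here. The members, lists and rules were chosen with earlier results of these data known. Of the IDs, 16799 matched a GRCr8 symbol. Promoters of 7 of the 10 members come from a RefSeq table for GRCr8, an assembly other than that of the counts. Differences within sets of libraries add 0.5 CPM before the log. Alternatives were RLE and library size scaling, pan-neuronal scaling, no filter, a minimum of 1 CPM in 3 libraries, limma-voom (limma 3.58.1), DESeq2 1.42.0, only the 6 libraries compared, the replicate block, each library left out, and, chosen after seeing the data, Sham 2, ICH 1 and EDB 1 left out.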

Additional observations from a re-analysis of the deposited data

How the results depend on the processing

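Members called lower in ICH against Sham numbered 8, and 7 or 8 under each other setting except the omission of Sham 2, ICH 1 and EDB 1: 7 under limma-voom, no filter and pan-neuronal scaling, each of which lost Npas4, and 7 to 8 when 1 library was left out. In EDB against Sham the count was 8, with 7 under limma-voom (Egr2 lost, adjusted p = 0.0517), 9 under DESeq2 and 7 to 9 when 1 library was left out. Without Sham 2, ICH 1 and EDB 1 the counts were 4 and 4, with fewer samples. In EDB against ICH the count of 1 (Fos) became 0 with no filter, under limma-voom, with only the 6 libraries, with the replicate block and without Sham 2, ICH 1 and EDB 1, and was 0 to 1 when 1 library was left out. The cause was not tested. Members called higher numbered 0 in every comparison and setting run.

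The labels do not state that the replicate numbers pair the libraries. Deviations from the group means correlated from -0.31 to 0.25 over 9 same-numbered pairs, 2 of them over 0.1. Differently numbered pairs ran from -0.23 to 0.33. With 3 libraries per group the deviations within a group are tied to each other, so these values do not decide about pairing. With the replicate block the members called lower were 8 in ICH against Sham, 0 in EDB against ICH and 9 in EDB against Sham, and all genes called lower 746, 58 and 228, against 1042, 90 and 387 without it.

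All genes called lower ran from 164 (pan-neuronal scaling) to 1465 (DESeq2) in ICH against Sham, from 8 (without ICH 2) to 1146 (pan-neuronal scaling) in EDB against ICH, and from 134 (without EDB 1) to 752 (DESeq2) in EDB against Sham. The share of calls that were lower was 39.0%, 91.8% and 35.4% in these comparisons, 25.6%, 90.2% and 28.5% with library sizes alone, and 3.33%, 99.0% and 12.3% with pan-neuronal scaling.

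Signs turned only in EDB against ICH, for members that were not called. Egr1 was at 0.0099 under RLE and DESeq2 and at 0.014 with only the 6 libraries. With 1 library left out, Egr1 ran from -0.0956 (without EDB 2) to 0.0716 (without EDB 1), Arc from -0.31 (without EDB 2) to 0.10 (without EDB 1), Nr4a3 from -0.42 (without EDB 3) to 0.41 (without ICH 1) and Npas4 from -0.88 (without EDB 2) to 1.32 (without EDB 3). Without Sham 2, ICH 1 and EDB 1 the values were 0.030 for Egr1, 0.11 for Arc and 0.81 for Nr4a3. Of the members, depth limits Npas4 most, with 6 to 78 counts per library in ICH and EDB.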

Other observations

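Markers of the remaining cell types moved in both directions beside the immediate early genes, by edgeR's quasi-likelihood test with Benjamini-Hochberg adjustment. Of all genes tested, 7.30% fell and 11.4% rose in ICH against Sham, and 2.71% fell and 4.95% rose in EDB against Sham. Of 8 astrocyte markers tested, 2 rose in ICH against Sham: Gfap, the filament protein of reactive astrocytes, by 3.34 ± 0.18 (SE, log2 scale), and the gap junction gene Gja1 by 0.60 ± 0.14. Both calls held without each library in turn. Gfap also rose in EDB, by 2.74 ± 0.17, and the glutamate transporter Slc1a2 was called lower there at -0.74 ± 0.19, a call that held without Sham 2 or EDB 2 but not without any other single library. Of 7 striatal interneuron markers, Lhx6, Nos1 and Nkx2-1 fell in ICH, at -0.76, -0.90 and -0.82, and the count of falls was 1 without Sham 3, ICH 1 or ICH 3. Of 12 cortical projection neuron markers, Nrgn, the calmodulin-binding protein neurogranin, fell in ICH by 0.87 ± 0.25, a call lost without Sham 2, ICH 1 or ICH 2, and 2 markers fell without Sham 1.

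Of 9 endothelial and mural markers, the VEGF receptor Flt1 and the smooth muscle actin Acta2 fell in ICH, at -0.77 and -1.38 (1 call without Sham 3 or ICH 3). In EDB, Flt1 and the pericyte receptor Pdgfrb were called lower at -0.73 and -0.53, with 0 calls without Sham 3, ICH 2, ICH 3, EDB 2 or EDB 3 and 4 without Sham 2. Summed CPM of oligodendrocyte markers was 17006 to 27870 in Sham, 16452 to 32731 in ICH and 38503 to 44080 in EDB, so every EDB library was above the other 6. Of the 7, the myelin gene Cldn11 was called higher in EDB against Sham at 1.23 ± 0.31, while the count was 0 without Sham 1, Sham 3, ICH 2 or any 1 EDB library and 5 without Sham 2. Summed CPM of 7 choroid plexus markers was 7308 in EDB 3 and 28.1 to 76.6 in the other 8 libraries. Under pan-neuronal scaling 0 interneuron, endothelial or mural markers were called in either comparison with Sham, 2 cortical markers rose and 0 fell in ICH, and Slc1a2 was not called. Higher calls numbered 4 of the astrocyte and 4 of the oligodendrocyte markers in ICH on that scale, and 1 and 3 of them in EDB. All genes called higher than in Sham numbered 4763 in ICH and 983 in EDB on that scale, of 14274 tested. The part of these transcripts in the levels of the immediate early genes was not tested.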
